A study of Mus musculus with 18 samples.

Results

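The purinergic receptors and ectoenzymes of striatal microglia were examined as 9 genes, chosen by symbol from the 55536 genes of the count table. They were the P2Y receptors *P2ry12*, *P2ry13* and *P2ry6*, the ATP-gated channels *P2rx4* and *P2rx7*, the lysophosphatidylserine receptor *Gpr34*, the adenosine receptor *Adora3*, and the ectoenzymes *Entpd1* and *Nt5e*. RNA was sequenced from cells that adhered to magnetic beads for CD11b, an integrin that microglia share with other myeloid cells, after striata were broken up mechanically on ice. The 18 samples fell into 4 genotypes of untreated adult C57BL/6 mice, whose age the labels do not state more closely. The WT group held 5 samples (1 female and 4 males) and the Tyrobp-KO group 3 (2 females and 1 male), in which both copies of *Tyrobp*, the gene of the signalling adaptor TYROBP (DAP12), were deleted. The Q175 group held 5 samples (4 females and 1 male) from heterozygotes whose *Htt* carries a knocked-in human exon with an expanded CAG tract. The Q175;Tyrobp-KO group held 5 samples (2 females and 3 males) with both alterations. The *Tyrobp* deletion is constitutive and the altered exon sits in *Htt* itself, so neither is restricted to microglia. The methods describe tissue taken apart mouse by mouse and 1 striatum sorted for a sample, where the labels give 2 striata and name no animal.

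Microglia sense ATP, ADP and UDP that leak or are released from neurons and injured cells. P2Y12 and P2Y13 respond to ADP and guide the movement of microglial processes, P2Y6 responds to UDP and is tied to phagocytosis, and the P2X channels open on ATP, with P2X7 upstream of inflammasome activation and P2X4 linked to release of neurotrophic factor. On the cell surface, the enzyme CD39 (*Entpd1*) strips ATP and ADP to AMP and CD73 (*Nt5e*) turns AMP into adenosine, which A3 (*Adora3*) and its sister adenosine receptors detect, so that the same cells can read both the danger signal and its breakdown product.

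Total counts ranged from 11260410 to 29771983 per sample (median 18342646). *Tyrobp* matched the labels in each library, with between 196 and 475 CPM (read counts scaled to library size with TMM factors) in the WT and Q175 samples and between 9.89 and 21.3 CPM in the samples with the deletion. The 16 microglial markers, none of them a member, were at 1 CPM or more in every sample, and their summarised level (the geometric mean of CPM plus 1) was between 466 and 1261 CPM. Oligodendrocyte markers reached between 136 and 472 CPM, astrocyte markers between 18.7 and 116 CPM and medium spiny neuron markers between 10.4 and 63.5 CPM, so the libraries were enriched for microglia and not pure. The microglial level was between 1.68 and 7.97 times that of the highest other list within a sample. In such bulk RNA, fewer cells of a type and less RNA per cell cannot be told apart. Other cells that carry CD11b had low marker levels, at most 2.94 CPM for border-associated macrophages and 9.74 CPM for the joint list of monocytes and neutrophils. A pair of libraries stood apart in the share of mitochondrially encoded genes, Q175 replicate 14 at 8.31% and Tyrobp-KO replicate 20 at 7.77%, against 0.635% to 2.91% in the others, and these had the highest astrocyte marker levels, 116 and 104 CPM. Q175 replicate 4 had the lowest microglial marker level, 466 CPM.

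Several members lie close together in the genome (GRCm38, GENCODE M21). *P2ry13* (ENSMUSG00000036362, chromosome 3, 59207892 to 59210882) and *P2ry12* (ENSMUSG00000036353, chromosome 3, 59216272 to 59262871) are neighbours on the minus strand with a gap of 5.39 kb, and both sit inside the span of *Med12l* on the other strand. *P2rx7* (ENSMUSG00000029468, chromosome 5, 122643911 to 122691432) and *P2rx4* (ENSMUSG00000029470, chromosome 5, 122707544 to 122729738) are neighbours on the plus strand with a gap of 16.11 kb. *Adora3* (ENSMUSG00000000562, chromosome 3, 105870858 to 105908926) shares 20.89% of its exonic bases with *Tmigd3* on the same strand, so its counts are uncertain to that extent. *Tmigd3* itself had 20 reads or fewer in each sample. *P2ry6* (ENSMUSG00000048779) is on chromosome 7 from 100937630 to 100974649, 70.52 Mb from *Tyrobp*. *Gpr34* (ENSMUSG00000040229) lies within the span of *Cask* on chromosome X from 13632089 to 13640858. *Entpd1* (ENSMUSG00000048120) is on chromosome 19 from 40612366 to 40741602 and *Nt5e* (ENSMUSG00000032420) on chromosome 9 from 88327197 to 88372092. The libraries were non-directional, and *P2ry12* shares 9 exonic bases with *Med12l*, which had between 69.4 and 100.1 CPM.

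Upstream sequences from RefSeq (GRCm38.p6) covered 7 of the 9 members, and *P2ry6* and *Gpr34* had no entry. The 250 bases before an annotated start are shown for 2 members that varied together with *P2ry12* (*P2ry13* and *Adora3*) and 2 that varied with *P2ry6* (*P2rx7* and *Entpd1*), as described further on. Capitals mark the PU-box letters GAGGAA, bound by the myeloid factor PU.1, and the AP-1 letters TGANTCA, searched on both strands, which cannot occupy the same bases.
P2ry13 (chr3:59210883-59211132, minus strand): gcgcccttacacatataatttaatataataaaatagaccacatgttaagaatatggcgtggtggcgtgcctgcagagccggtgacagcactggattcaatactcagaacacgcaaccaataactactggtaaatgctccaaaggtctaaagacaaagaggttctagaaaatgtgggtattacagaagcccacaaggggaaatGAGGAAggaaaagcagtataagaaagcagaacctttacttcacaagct
Adora3 (chr3:105904171-105904420, plus strand): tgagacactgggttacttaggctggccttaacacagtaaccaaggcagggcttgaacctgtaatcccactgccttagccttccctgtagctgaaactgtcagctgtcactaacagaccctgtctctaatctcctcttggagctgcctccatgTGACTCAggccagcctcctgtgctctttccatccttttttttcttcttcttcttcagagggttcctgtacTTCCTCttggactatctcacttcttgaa
P2rx7 (chr5:122643677-122643926, plus strand): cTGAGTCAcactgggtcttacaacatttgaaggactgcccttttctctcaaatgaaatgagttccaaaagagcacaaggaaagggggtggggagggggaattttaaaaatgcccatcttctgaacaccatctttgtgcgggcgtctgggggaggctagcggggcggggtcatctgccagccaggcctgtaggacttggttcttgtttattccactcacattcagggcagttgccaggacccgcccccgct
Entpd1 (chr19:40659520-40659769, plus strand, the downstream one of its 2 starts): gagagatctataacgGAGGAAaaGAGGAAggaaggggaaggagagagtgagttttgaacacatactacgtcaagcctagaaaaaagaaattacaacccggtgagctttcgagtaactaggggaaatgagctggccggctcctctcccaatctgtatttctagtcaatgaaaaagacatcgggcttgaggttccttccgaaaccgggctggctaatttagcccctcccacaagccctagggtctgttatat
The PU-box letters were found 1 time before *P2ry13*, 1 time before *Adora3* and 2 times before this *Entpd1* start, and in 23.3% of 32851 mouse promoter windows of the same length. The AP-1 letters were found 1 time before *Adora3* and 1 time before *P2rx7*, against 6.75% of all windows. Neither was found in the windows of *P2rx4*, *Nt5e*, the other starts of *P2rx7* and *Entpd1*, or *P2ry12*, whose window lies within annotated exons of *Med12l*. The *Nt5e* window (chr9:88327359-88327608) also lies within annotated exons. It begins after the GENCODE start of that gene at 88327197, so it is not upstream of that start. The *Adora3* window likewise begins after the GENCODE start of *Adora3* at 105870858. The *P2rx7* window printed above runs past the GENCODE start of *P2rx7* at 122643911 and holds 16 annotated exon bases.

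Per kilobase of exon, the members spanned more than 3 orders of magnitude. The medians over 18 samples were 685 CPM per kb for *P2ry12*, 543 for *Gpr34* and 414 for *P2ry13*, which are the G protein-coupled receptors typical of resting microglia. The ectoenzyme *Entpd1* followed at 89.9 CPM per kb, *P2ry6* at 35.02, *P2rx7* at 26.0, *Adora3* at 14.7 and *P2rx4* at 7.09. *Nt5e*, the next enzyme after *Entpd1* in the breakdown of ATP, came last at 0.299 CPM per kb, and *Entpd1* was between 70.6 and 1013 times higher than *Nt5e* within a sample.

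**Figure D1:**
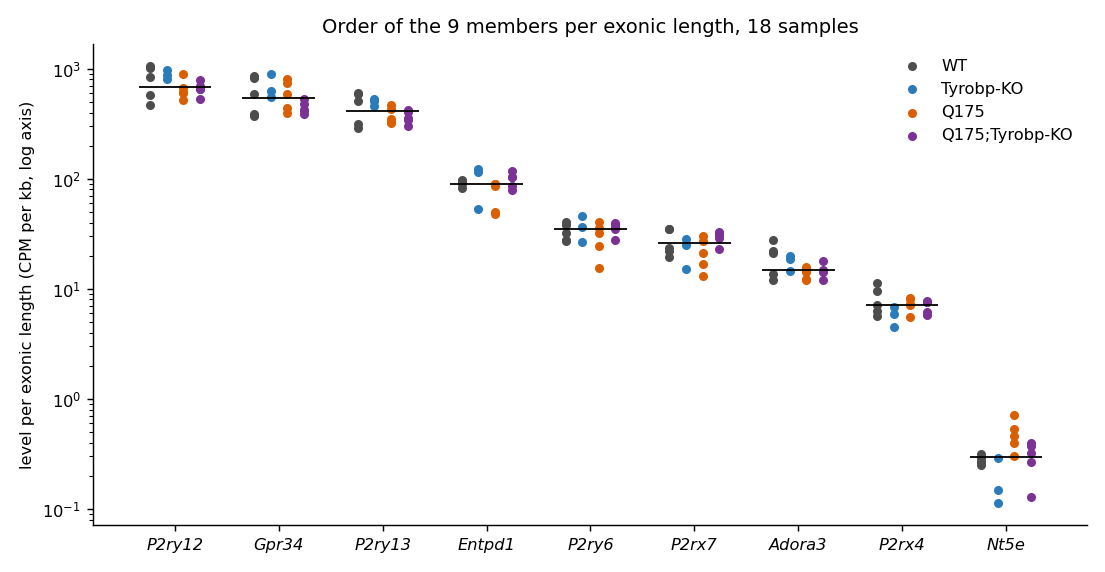
Level of each member per kilobase of exon (CPM per kb, log axis) in the 18 samples, coloured by genotype, with the median over all samples as a line. *P2ry12*, *Gpr34* and *P2ry13* lie together at the top and *Nt5e* stands alone at the bottom, at a median of 0.299 CPM per kb.

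Some neighbours in this order were close to each other. *P2ry12* was above *Gpr34* in 17 of 18 samples by a geometric mean of 1.31-fold (log2 ratio 0.39 ± 0.26, SD), and *Gpr34* was above *P2ry13* in 17 of 18 by 1.34-fold (0.43 ± 0.23, SD). *P2ry6* was above *P2rx7* in 18 of 18 by 1.32-fold, while *P2rx7* was above *Adora3* in 15 of 18 by 1.56-fold with a wide spread (log2 ratio 0.64 ± 0.58, SD). The other 4 neighbouring pairs kept their order in 18 of 18 samples. These levels use the union of annotated exons as the length, which need not be the expressed isoform.

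*P2ry12* encodes the ADP receptor that defines the ramified, surveying microglial state. Its CPM in WT replicates 1, 2, 6, 7 and 8 was 2707, 2144, 2591, 1184 and 1474, and in Tyrobp-KO replicates 15, 19 and 20 it was 2036, 2238 and 2498. Q175 replicates 3, 4, 9, 14 and 17 had 1327, 1702, 1529, 1571 and 2274 CPM, and Q175;Tyrobp-KO replicates 5, 11, 12, 13 and 16 had 1351, 2033, 1785, 1656 and 1661 CPM. The WT samples were split, with replicates 1, 2 and 6 high and replicate 7 (the female of this group) and 8 (a male) low, so that they enclosed the whole Tyrobp-KO range. The Tyrobp-KO and Q175;Tyrobp-KO samples did not overlap, although the lowest Tyrobp-KO sample lay only just above the highest of the other group.

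*P2ry13*, the second ADP receptor and the genomic neighbour of *P2ry12*, showed the same arrangement. In the same order of replicates it was at 1509, 1287, 1506, 733 and 803 CPM in WT and at 1281, 1157 and 1344 CPM in Tyrobp-KO. It was at 830, 1081, 808, 882 and 1192 CPM in Q175 and at 763, 1074, 874, 1019 and 902 CPM in Q175;Tyrobp-KO. All 3 Tyrobp-KO samples were above all 5 Q175;Tyrobp-KO samples, and WT replicates 7 and 8 were again apart from the other WT samples. Per kilobase, *P2ry12* was between 1.56 and 2.03 times *P2ry13* in the 18 samples (median 1.78), with group medians between 1.71 in WT and 1.85 in Tyrobp-KO.

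*Gpr34*, a receptor for lysophosphatidylserine that is structurally related to the P2Y family, ranged more widely. It was at 1713, 1243, 1787, 772 and 811 CPM in WT, and at 1315, 1165 and 1861 CPM in Tyrobp-KO. It was at 914, 1678, 831, 1225 and 1551 CPM in Q175 and at 882, 1104, 874, 805 and 1003 CPM in Q175;Tyrobp-KO. The Q175;Tyrobp-KO samples were the most uniform (934 ± 119 CPM, SD, n = 5) and lay below each Tyrobp-KO sample, while Q175 and WT each contained both high and low samples.

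*Adora3*, which encodes the Gi-coupled A3 adenosine receptor, was at 78.4, 82.9, 102.8, 44.9 and 51.3 CPM in WT and at 69.0, 73.9 and 53.6 CPM in Tyrobp-KO. It was at 52.5, 55.9, 44.96, 45.7 and 59.2 CPM in Q175 and at 44.4, 66.2, 54.5, 55.3 and 53.3 CPM in Q175;Tyrobp-KO. WT replicates 1, 2 and 6 exceeded each Q175 sample, but replicates 7 and 8 did not, so the groups overlapped.

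*P2ry6*, the UDP receptor, was at 79.5, 93.3, 77.7, 117 and 109 CPM in WT and at 106, 133 and 77.6 CPM in Tyrobp-KO. It was at 117, 44.4, 92.7, 70.2 and 102 CPM in Q175 and at 80.1, 99.96, 114, 112 and 108 CPM in Q175;Tyrobp-KO. Here WT replicates 7 and 8 were the highest of their group, opposite to *P2ry12*, and Q175 replicate 4 was the lowest of all samples.

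The ATP-gated channels showed the same inversion. *P2rx7* was at 139, 132, 116, 209.7 and 209 CPM in WT and at 148, 171 and 89.8 CPM in Tyrobp-KO, then at 182, 78.2, 162, 100.2 and 126 CPM in Q175 and at 139, 186, 171, 195 and 194 CPM in Q175;Tyrobp-KO. The Q175;Tyrobp-KO samples were above the Q175 samples in 22 of 25 pairs. *P2rx4* was at 49.7, 44.2, 39.6, 79.4 and 67.7 CPM in WT, at 47.9, 41.6 and 31.5 CPM in Tyrobp-KO, at 49.9, 38.9, 51.0, 56.8 and 58.5 CPM in Q175 and at 40.4, 54.5, 43.5, 52.8 and 52.9 CPM in Q175;Tyrobp-KO. No pair of genotypes was separated for either channel. Per kilobase, *P2rx7* was between 2.07 and 4.84 times *P2rx4* (median 3.63).

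*Entpd1*, which encodes CD39, the main ATP- and ADP-degrading ectoenzyme of microglia, was at 464, 542, 530.1, 499 and 531 CPM in WT and at 680.4, 638 and 298 CPM in Tyrobp-KO. It was at 503, 279.6, 477, 266 and 496 CPM in Q175 and at 445, 578, 480.5, 652 and 580.4 CPM in Q175;Tyrobp-KO. WT was narrow, whereas Q175 replicates 4 and 14 and Tyrobp-KO replicate 20 were at about the same low level, well below the others. Replicates 14 and 20 are the libraries with the high mitochondrial share and replicate 4 the one with the lowest microglial marker level, and the part of these in the *Entpd1* level was not tested.

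*Nt5e*, which encodes CD73, the AMP-hydrolysing enzyme, rested on 19 to 93 reads per sample and reached 1 CPM in 17 of 18 samples. It was at 2.52, 2.28, 2.73, 2.18 and 2.27 CPM in WT and at 2.49, 0.97 and 1.29 CPM in Tyrobp-KO. It was at 4.57, 6.10, 2.62, 3.45 and 3.96 CPM in Q175 and at 3.44, 2.29, 1.099, 2.74 and 3.18 CPM in Q175;Tyrobp-KO. Q175 was above WT in 24 of 25 pairs, the exception being Q175 replicate 9 against WT replicate 6.

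**Figure D2:**
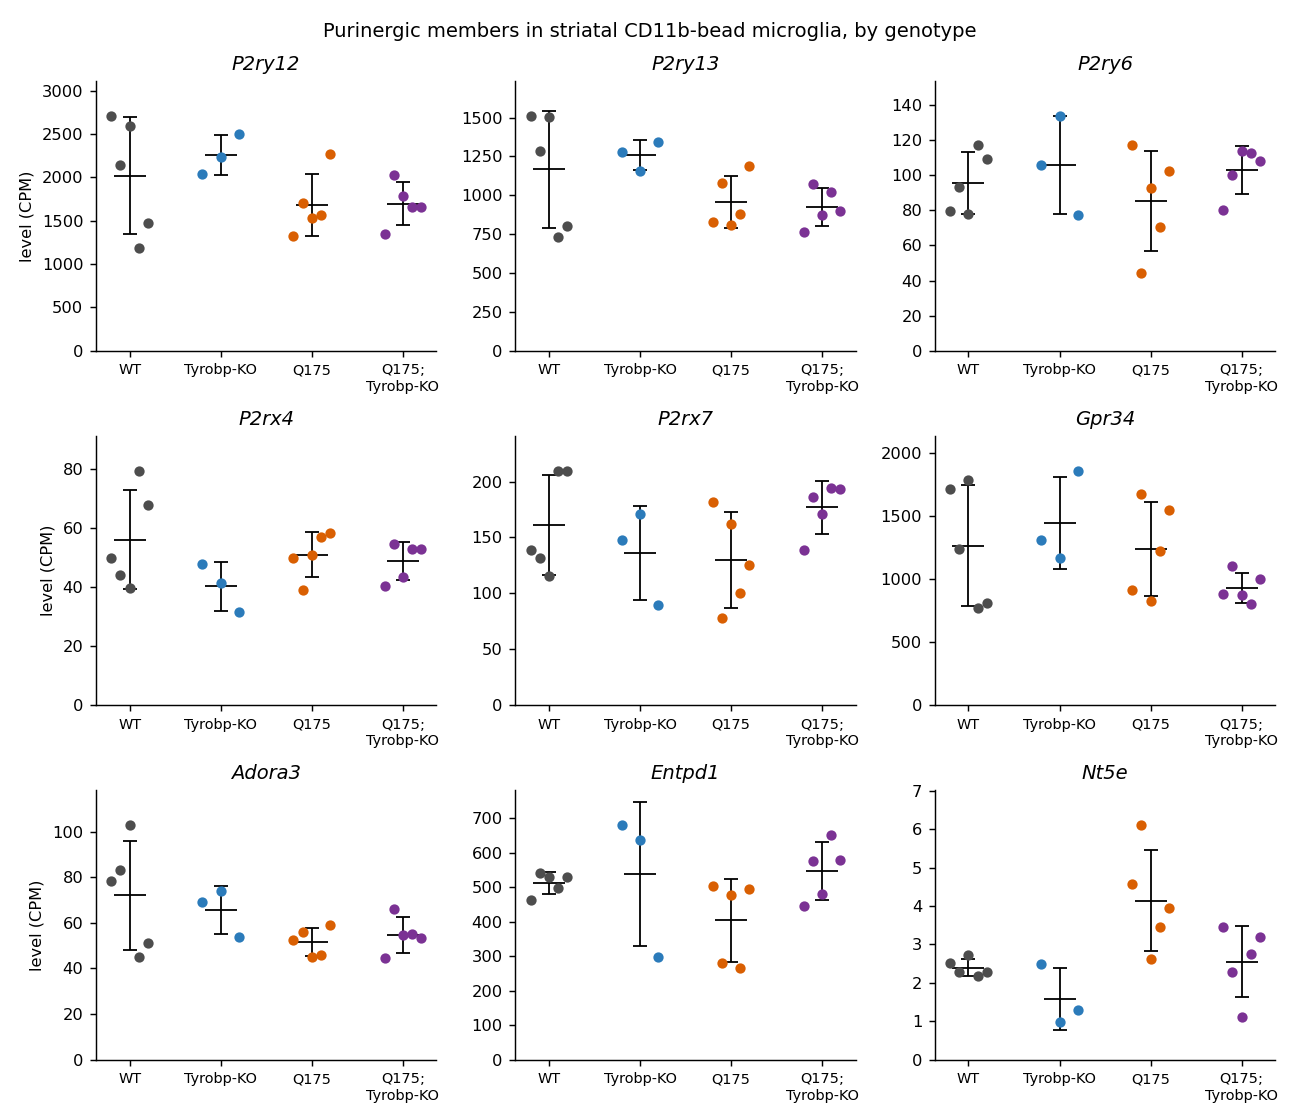
Level of each member (CPM, axis from 0) by genotype, with 1 point per sample and the mean ± SD of each group in black. WT samples split for *P2ry12*, *P2ry13*, *Gpr34* and *Adora3*, and the Q175;Tyrobp-KO samples lie below the 3 Tyrobp-KO samples for *P2ry12*, *P2ry13* and *Gpr34*.

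The first comparison asked how microglia of the disease model differ from WT. No member passed edgeR's quasi-likelihood test at a Benjamini-Hochberg FDR of 0.1, as did none of the 18266 genes tested (0.0% called). The median log2 fold change of the members was -0.23, beside -0.02 over all genes tested, of which 46.74% had a positive value. Of the 9 members, 8 had a negative value, with *Gpr34* at -0.002. Several of these varied together, as described further on, so they do not count as independent members. *Nt5e* was the exception at 0.80 (95% interval 0.23 to 1.37, edgeR unadjusted p = 0.00989, adjusted p = 0.468), which is 1 of 9 members at an unadjusted p under 0.05 against 6.24% of all genes. Its exact permutation test gave p = 0.0159, adjusted to 0.321 over 36 member tests, 2-sided. The astrocyte marker level moved with the same groups, at 41.0 to 116 CPM in Q175 and 22.3 to 31.1 CPM in WT without overlap, and 4 of 5 Q175 samples but 1 of 5 WT samples were female. With a score of astrocyte, neuron and oligodendrocyte markers as a term the *Nt5e* value was 0.87, and with sex as a term it was 0.59. *Adora3* had a log2 fold change of -0.45 (interval -0.93 to 0.02) and *Entpd1* of -0.32 (interval -0.80 to 0.16), which became 0.07 with the score as a term, -0.21 with sex as a term, -0.20 without Q175 replicate 4 and -0.20 without Q175 replicate 14. The *Adora3* value was -0.25 with sex as a term, -0.27 with the GC slope of the library (defined further on) as a term and -0.30 without WT replicate 6. The other 6 members lay between -0.29 and 0.00.

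The second comparison, of Q175;Tyrobp-KO with Q175, asked what deletion of *Tyrobp* does in the disease model. None of the 9 members was called, beside 2 of 18059 genes (0.0111%), and none had an unadjusted p under 0.05 (8.01% of all genes did). *P2rx7* had a log2 fold change of 0.45 (95% interval -0.02 to 0.91), *Entpd1* of 0.43 (-0.03 to 0.90), *Gpr34* of -0.41 (-0.87 to 0.05) and *Nt5e* of -0.70 (-1.41 to 0.01). Their adjusted p values were all 0.533 by edgeR. With the microglial marker level as a term *P2rx7* was at 0.18 and *Entpd1* at 0.19, *Nt5e* was at -0.42 with sex as a term, and *Gpr34* was at -0.27 when scaled by total counts. The other 5 lay between -0.07 for *P2rx4* and 0.27 for *P2ry6*, and the *P2ry12* difference was 0.01 with an interval of -0.39 to 0.41. The Q175 samples served as the reference here and were the test group of the first comparison, so values of opposite sign in these comparisons share their samples. The share of counts on the ribosomal RNA-like genes *Gm26917* and *Gm42418* was 14.996% to 32.7% in Q175 and 11.5% to 24.9% in Q175;Tyrobp-KO, and its part in these values was not tested.

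On the WT background, deletion of *Tyrobp* gave no called member, beside 4 of 18017 genes (0.0222%), and no member had an unadjusted p under 0.05 (6.82% of all genes did). *P2rx4* had a log2 fold change of -0.40 (SE 0.27) and *Nt5e* of -0.53 (SE 0.39). Single libraries moved both, *P2rx4* to -0.26 without Tyrobp-KO replicate 20 and *Nt5e* to -1.04 without replicate 15 and -0.27 without replicate 19 of that group. With the microglial marker level as a term *P2rx4* was at -0.67, and with the score of other cell types it was at -0.22 and *Nt5e* at -0.34. The other 7 lay between -0.17 and 0.26. These 3 samples were set against the split WT group, and for *P2ry12* the interval ran from -0.47 to 0.93. The smallest 2-sided p that an exact test of 3 against 5 samples allows is 0.0357.

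The comparison of Q175;Tyrobp-KO with Tyrobp-KO, which asks what the Q175 allele does where *Tyrobp* is absent, separated the groups most among the members. The samples did not overlap for 3 of 9 members, *P2ry12*, *P2ry13* and *Gpr34*, each lower in Q175;Tyrobp-KO, against 9.98% of 17723 genes in either direction and 5.92% in this direction. In the other 3 pairwise comparisons the groups of each member overlapped, where those of 1.09% (Q175 against WT), 0.864% (Q175;Tyrobp-KO against Q175) and 4.48% (Tyrobp-KO against WT) of genes did not. *Gpr34* had a log2 fold change of -0.65 (95% interval -1.08 to -0.22, edgeR unadjusted p = 0.00725), *P2ry13* of -0.47 (-0.80 to -0.13, unadjusted p = 0.0123) and *P2ry12* of -0.43 (-0.82 to -0.04, unadjusted p = 0.0335). The same 3 of 9 members are those with an unadjusted p under 0.05, which 13.2% of all genes had. These 3 varied together over the 18 samples (Pearson's r between 0.81 and 0.95), so they do not count as 3 independent members. Without Tyrobp-KO replicate 20, the library with the high mitochondrial share, the values were -0.43 for *Gpr34*, -0.42 for *P2ry13* and -0.36 for *P2ry12*. None was called by edgeR (adjusted p = 0.291, 0.294 and 0.339), as was none of the 17723 genes (0.0%). DESeq2's Wald test called *Gpr34* (adjusted p = 0.0547) and *P2ry13* (adjusted p = 0.0697), beside 3.84% of all genes. A single edgeR fit over all 4 groups gave a lowest adjusted p of 0.754 for any gene in this comparison. In that fit 954 of 18613 genes had an unadjusted p under 0.05, so the p values depend on which samples estimate the spread. Each exact permutation test gave the smallest p possible, 0.0357, which was 0.321 after adjustment over 36 tests. Groups of this size that do not overlap always give that p, so it adds nothing to the lack of overlap.

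The libraries of these groups also differed in how gene levels ran with exonic length. Slopes were fitted for each library to the deviation of each gene's log2 CPM from its mean over the 18 samples. They are thus relative to the average library. The slope on exonic length was -0.11 log2 units per doubling in each of the 3 Tyrobp-KO samples and between -0.02 and 0.08 in Q175;Tyrobp-KO. The slope on transcript GC content was between -0.15 and -0.02 log2 units per 10 percentage points in Tyrobp-KO and between -0.18 and 0.15 in Q175;Tyrobp-KO, so that these ranges overlapped. With the GC slope as a term, a setting added after the data were seen, the values were -0.61 for *Gpr34*, -0.36 for *P2ry13* and -0.36 for *P2ry12*. The summarised level of 6 border-associated macrophage markers was 1.90 to 2.19 CPM in Tyrobp-KO and 0.699 to 1.54 CPM in Q175;Tyrobp-KO, without overlap and in the same direction as these 3 members, with 3 and 2 of the 6 at 1 CPM or more in every sample of the group. Over all 18 samples the length slope had a Pearson's r of -0.54 with *P2ry12*, -0.59 with *P2ry13* and -0.55 with *Gpr34*. The permutation p values, adjusted over 81 relations, were 0.0739, 0.0458 and 0.071. The part of the length slope and of the border-associated macrophage markers was not tested. Among the other members, *P2rx7* was at 0.35 (95% interval -0.11 to 0.82) and *Nt5e* at 0.66 (-0.36 to 1.67), and the remaining 4 lay between -0.28 and 0.25. *P2rx7* was at 0.12 without Tyrobp-KO replicate 20 and 0.57 without replicate 19, and *Nt5e* at 1.17 without replicate 15 and 0.42 without replicate 19.

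**Figure D3:**
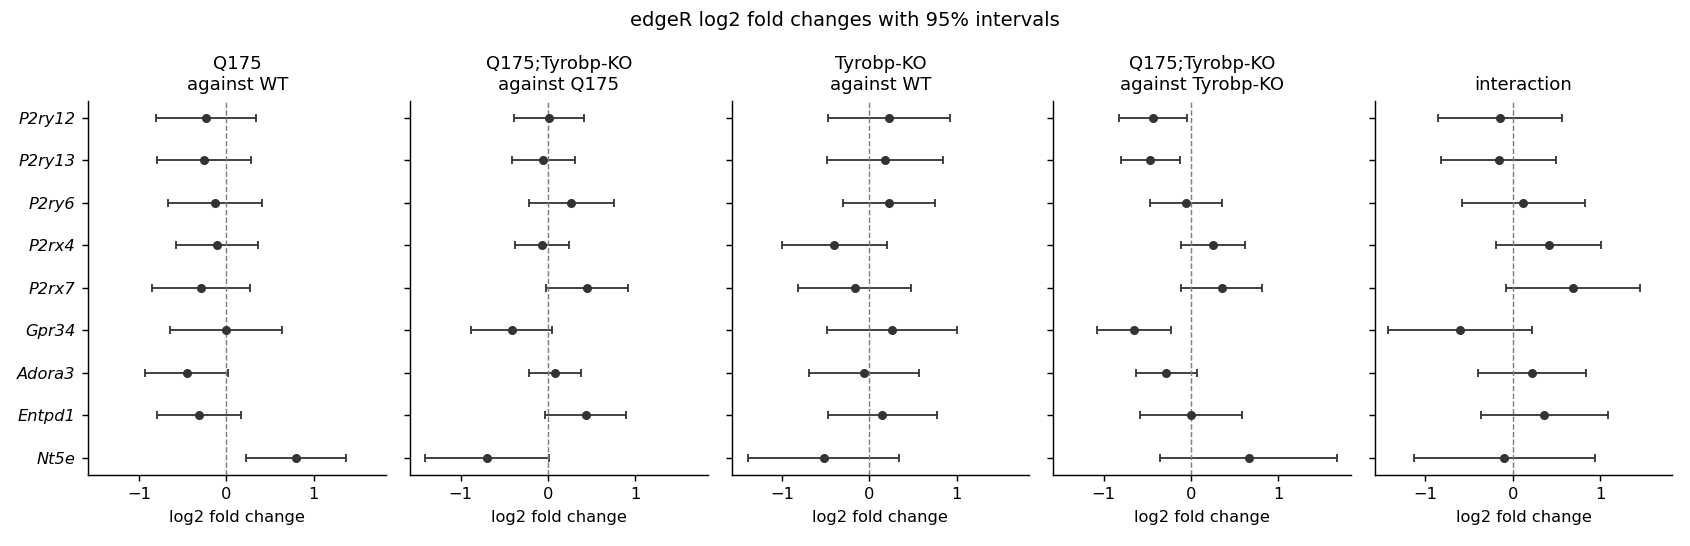
edgeR log2 fold changes of the 9 members with 95% intervals in the 4 pairwise comparisons and the interaction, each on the same axis with 0 dashed. The intervals of *P2ry12*, *P2ry13* and *Gpr34* lie below 0 in Q175;Tyrobp-KO against Tyrobp-KO and that of *Nt5e* above 0 in Q175 against WT, and none of these passed the adjusted threshold.

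The interaction asked whether the Q175 difference depends on *Tyrobp*, or equally whether the *Tyrobp* difference depends on Q175. It called no member and none of 18613 genes (0.0%), and no member had an unadjusted p under 0.05 (6.01% of all genes did). *P2rx7* had 0.69 (95% interval -0.08 to 1.45), and *Gpr34* had -0.60 (-1.42 to 0.22), *P2rx4* 0.41 (-0.19 to 1.01) and *Entpd1* 0.36 (-0.36 to 1.09). Without Tyrobp-KO replicate 20 these were 0.43, -0.43, 0.23 and 0.04. *Entpd1* was also at 0.57 without Tyrobp-KO replicate 15, 0.20 without Q175 replicate 4, 0.20 with sex as a term and 0.11 with the score of other cell types, and *P2rx4* at 0.25 without either WT replicate 7 or Q175 replicate 4. The other 5 lay between -0.16 and 0.22. The *Gpr34* value of Q175;Tyrobp-KO against Tyrobp-KO was not shown to differ from its value of 0.00 in Q175 against WT.

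Taken over both *Htt* genotypes, deletion of *Tyrobp* gave *Nt5e* a log2 fold change of -0.66 (95% interval -1.15 to -0.16, edgeR unadjusted p = 0.0118, adjusted p = 0.441), and no member was called, beside 30 of 18613 genes (0.161%). This is 1 of 9 members at an unadjusted p under 0.05, against 8.81% of all genes. Between females and males *Nt5e* differed by 0.59 (0.06 to 1.12, unadjusted p = 0.0319, adjusted p = 0.878), also 1 of 9 members against 5.18% of genes, and no member was called, beside 0.043% of genes. The other 8 members lay between -0.24 and 0.28 for the deletion and between -0.27 and 0.12 for sex.

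Other genes that make, release, degrade or answer purines were drawn up as a list of 53, of which 42 reached 1 CPM in at least 1 sample and 30 in every sample. Among the other nucleotide receptors, *P2ry10b* stood at a median of 23.9 CPM, and 3 of 12 were at 1 CPM or more in every sample. Signalling partners of the receptors were well represented, with 10 of 11 at 1 CPM or more in every sample, among them *Kcnk13*, the potassium channel THIK-1 that acts beside P2Y12, at a median of 51.0 CPM and *Pik3cg*, the PI3K subunit downstream of P2Y12, at 348 CPM. Of the 9 other ectonucleotidases, 2 reached that level in every sample. No gene of the list was called by edgeR in any of the 7 comparisons.

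By the rule for naming genes (unadjusted edgeR p under 0.01 in any of the 7 comparisons), 4 genes of this list are named. The share of all genes under 0.01 is not given, so this count is not a result about the list. At an unadjusted p under 0.05 there were 7 of 42 listed genes in Q175 against WT (6.24% of all genes). There were 4 of 41 in Q175;Tyrobp-KO against Tyrobp-KO (13.2%) and 4 of 42 in the interaction (6.01%). *Gja1*, the astrocytic gap junction protein connexin 43, had a log2 fold change of 0.92 in Q175 against WT (95% interval 0.40 to 1.44, unadjusted p = 0.00214, adjusted p = 0.345), at 47.8 to 111 CPM in Q175 and 29.0 to 48.0 CPM in WT. The astrocyte marker level, in whose list *Gja1* itself stands, did not overlap between the same groups, and its part in this value was not tested. In Q175;Tyrobp-KO against Tyrobp-KO, *Ada*, the enzyme that deaminates adenosine, had 1.13 (0.51 to 1.74, unadjusted p = 0.0025, adjusted p = 0.291), at 2.81 to 4.60 CPM against 1.32 to 1.97. *Pnp*, the next enzyme in that pathway, had -0.48 (-0.80 to -0.17, unadjusted p = 0.00696, adjusted p = 0.291), at 45.3 to 62.4 CPM against 70.7 to 82.2. *Casp1*, the protease that the P2X7-linked inflammasome activates, had -0.62 (-0.94 to -0.31, unadjusted p = 0.00155, adjusted p = 0.291), at 18.7 to 27.2 CPM against 31.3 to 34.4. DESeq2 called these 3 of the 41 listed genes tested in this comparison, beside the 3.84% of all genes given above. Their ranges did not overlap, as was the case for 9.98% of all genes. The ranges of *P2ry10b*, *Kcnk13* and *Il1b*, which are also on the list, did not overlap in this comparison either. *Ada* also had an interaction of 1.33 (0.49 to 2.17, unadjusted p = 0.00371, adjusted p = 0.716).

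Across the 18 samples the members fell into sets that varied together. *P2ry12* and *P2ry13* had a Pearson's r of 0.95 (Spearman's rho = 0.94, permutation p = 1e-05 for both, the smallest that 100000 resamples can give, adjusted p = 0.00018 over 36 pairs). It was 0.92 without the 2 samples farthest from the median, 0.94 within genotypes, 0.96 in females and 0.95 in males. *Gpr34* and *Adora3* belonged with them, at r between 0.59 and 0.86 for the other 5 pairs of these 4 genes. *P2ry6*, *P2rx7* and *Entpd1* formed another set, with r between 0.77 and 0.85 (rho between 0.59 and 0.82). Without the 2 farthest samples, r was 0.75 for *P2ry6* with *P2rx7*, 0.60 for *P2ry6* with *Entpd1* and 0.57 for *P2rx7* with *Entpd1*, the last of which was 0.82 in females and 0.37 in males. *Gpr34* and *P2rx7* went in opposite directions (r = -0.79, rho = -0.82, permutation p = 0.00014 and 0.00011, adjusted 0.00072 and 0.000566, and -0.72 without the 2 farthest samples). *Nt5e* had no pair with an adjusted p under 0.05, and *P2rx4* had its highest value with *P2rx7* at 0.62.

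**Figure D4:**
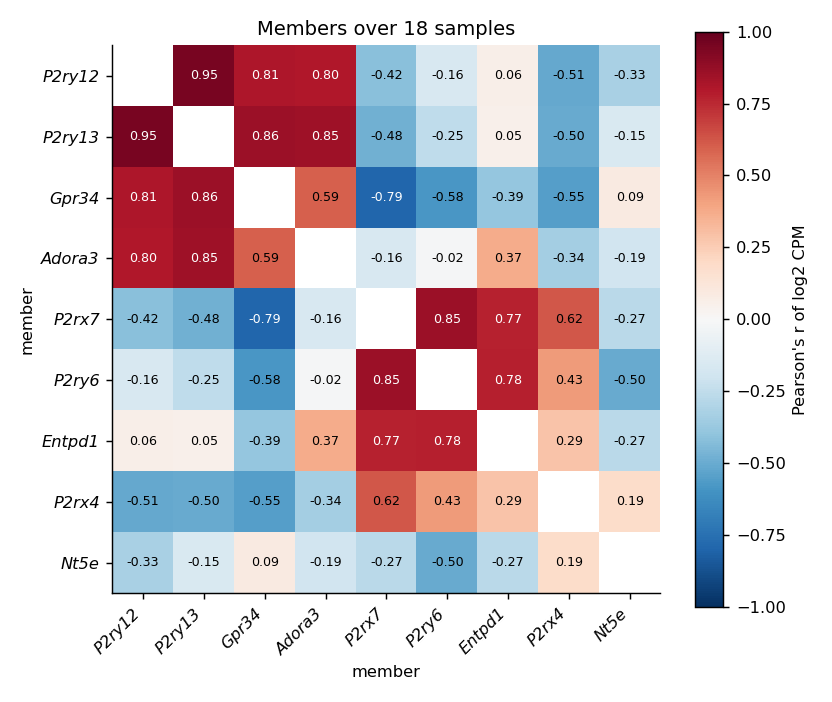
Pearson's r of log2 CPM for each pair of members over 18 samples. *P2ry12*, *P2ry13*, *Gpr34* and *Adora3* form one block of positive values, *P2rx7*, *P2ry6* and *Entpd1* another, and *Gpr34* against *P2rx7* is at -0.79.

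These sets moved with different library properties. The GC slope, computed on genes other than the members, correlated with *P2ry12* (r = -0.88, rho = -0.87, permutation p = 2e-05 and 1e-05, adjusted 0.000405 and 0.00081 over 81 relations) and with *P2ry13* (r = -0.86, rho = -0.85, permutation p = 2e-05 and 4e-05, adjusted 0.000405 and 0.00142). Without the 2 farthest samples these were -0.81 for both, and within genotypes -0.87 and -0.86. With the same slope r was -0.70 for *Gpr34* and -0.79 for *Adora3*. For the other members it was -0.23 for *Entpd1*, 0.27 for *P2rx7*, 0.31 for *P2rx4*, 0.13 for *P2ry6* and 0.07 for *Nt5e*. The GC content of the transcripts is 39.4% for *P2ry12*, 44.7% for *P2ry13*, 36.8% for *Gpr34* and 47.4% for *Adora3* as for *Entpd1*, and 50.1% for *P2rx7*, 52.3% for *P2rx4* and 54.5% for *P2ry6*. The level of the 16 microglial markers correlated with *P2ry6* (r = 0.94, rho = 0.84, permutation p = 1e-05 and 6e-05, adjusted 0.000405 and 0.00142, and 0.91 without the 2 farthest samples). For *P2rx7* and *Entpd1* r with that level was 0.78 each. In the other set it was -0.17 for *P2ry12*, -0.23 for *P2ry13*, -0.54 for *Gpr34* and -0.05 for *Adora3*. *Entpd1* also went against the share of *Gm26917* and *Gm42418* (r = -0.82, rho = -0.79, permutation p = 2e-05 and 0.00018, adjusted 0.000405 and 0.00243, and -0.68 without the 2 farthest samples). So did *P2rx7* (r = -0.71) and *P2ry6* (r = -0.68), at -0.47 and -0.54 without the 2 farthest samples. With the mitochondrial share *Entpd1* had r = -0.70 (rho = -0.42, permutation p = 0.00648 and 0.0811, adjusted 0.0375 and 0.207), which was -0.11 without the 2 farthest samples and so rested on them. Whether these properties set the members' levels was not tested.

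**Figure D5:**
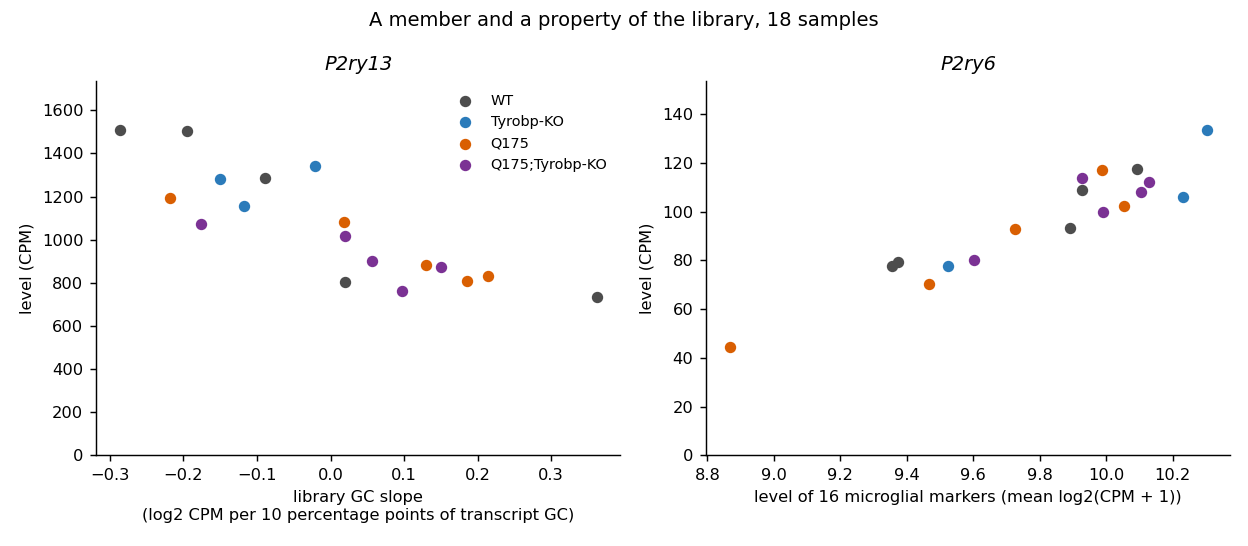
*P2ry13* (CPM) against the GC slope of the library (log2 CPM per 10 percentage points of transcript GC), and *P2ry6* (CPM) against the level of 16 microglial markers (mean log2 of CPM plus 1), in 18 samples coloured by genotype. *P2ry13* runs downward (r = -0.86) and *P2ry6* upward (r = 0.94). The 3 Tyrobp-KO samples lie between -0.15 and -0.02 in GC slope, a narrower range than in the other genotypes, and between 1157 and 1344 CPM for *P2ry13*.

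The genes most like each member were taken from 9583 genes with a mean of 10 CPM or more. *P2ry12* was most like *Mob4* (r = 0.96), *Acsl4* and *1110059G10Rik*, and *P2ry13* was most like *Fam136a* (0.97), *Ms4a6b* and *Lpar6*. *Gpr34* was most like *Ggh* (0.98), *Lamp2* and *Ranbp6*, and *Adora3* was like *Cnot8* (0.97) and *Otulinl*. *P2ry6* was most like *Gorasp2* (0.97), *Rgs19* and *Orai1*, *P2rx7* like *Bmp2k* (0.98), *Cflar* and *Itgb3*, and *P2rx4* like *Ildr2* (0.91), *Nfkb2* and *Slc35f6*. *Entpd1* was most like *Pik3cg* (0.97), *Golm1* and *Msn*, and *Nt5e* like *Rgs3* (0.72), *Slc35e4* and *St6galnac3*. The values for *Nt5e* were the lowest of the 9 members, and it was also the member with the fewest reads. These are values of likeness over 18 samples, which share the library properties above.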

How the data were processed

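RNA-seq of CD11b-bead microglia from 18 samples in 4 genotype groups was analysed. The authors made SMART-Seq v4 libraries, used STAR (GRCm38) and featureCounts, and the deposited values are whole-number counts without normalization. The methods name a UCSC gene model, the submitters' processing notes list GRCh38, and all 55536 identifiers are mouse Ensembl genes found in GENCODE M21. A further 2 columns match no label and were left out. Sources name DESeq2 for the authors' tests.

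Counts were scaled by TMM (factors 0.788 to 1.13). Genes reaching 1 CPM in 1 or more samples compared entered the test of edgeR 4.0.16 (quasi-likelihood, R 4.3.3) at an FDR of 0.1, pairwise on the groups compared and over all groups for the interaction, the deletion over both *Htt* genotypes and sex. All 9 members passed this filter in each of the 7 comparisons. DESeq2 1.42.0 was an alternative. Both were tested on simulated data. Single members were also compared with 2-sided exact permutation tests on log2 CPM (prior count 2). Correlations used 100000 permutations. Library slopes were fitted over 9583 genes, 9579 with a GC value. Alternatives were other scalings, filters, a single fit over all 4 groups, terms for sex, marker levels or GC slope, and leaving out each sample. The labels name no animals, so p-values measure the spread between these samples, which may in part be technical.

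The members and gene lists were chosen with earlier results of these data known. A member's log2 fold change is given singly at a size of 0.3 or an unadjusted p under 0.05, listed pathway genes at an unadjusted p under 0.01, and the 3 most alike protein-coding genes per member by Pearson's r, of which 1 is not reported here.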

Additional observations from a re-analysis of the deposited data

How the results depend on the processing

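No paired analysis was possible because the groups have no replicate numbers in common. edgeR called 0 members in each comparison, and 64 of 66 alternatives for this count left it at 0. In Q175;Tyrobp-KO against Tyrobp-KO, DESeq2 called 2 members, *P2ry13* (-0.45) and *Gpr34* (-0.64), and the microglial marker level as a term called 3, *P2ry13* (-0.47), *Gpr34* (-0.65) and *P2rx7* (0.45), in a fit with 1168 genes called higher and 1075 lower. Of the other purine genes, of which edgeR called 0, DESeq2 called 1 in Q175 against WT (beside 231 genes higher and 3 lower in all) and 3 in Q175;Tyrobp-KO against Tyrobp-KO (270 higher and 410 lower in all). The microglial term called 1 in Tyrobp-KO against WT (412 higher and 78 lower in all) and 6 of 41 tested in Q175;Tyrobp-KO against Tyrobp-KO, in the fit with the 1168 and 1075 calls. The cause was not tested. With the score of non-microglial markers fitted, *Entpd1* in Q175 against WT turned from -0.32 to 0.0717. Leaving out any 1 sample called 0 members and 0 listed genes, and the sign of each singly named log2 fold change held. In Q175;Tyrobp-KO against Q175 the values then ran from 0.32 to 0.60 for *P2rx7* and 0.32 to 0.52 for *Entpd1*. They ran from -0.53 to -0.28 for *Gpr34* and -0.85 to -0.50 for *Nt5e*. *Nt5e* ran from 0.64 to 0.90 in Q175 against WT, -0.83 to -0.53 for the deletion over both *Htt* genotypes and 0.47 to 0.79 between sexes. Other sizes moved too, in part as given beside the values. Scaling by total counts shifted the median of all genes by 0.13 in Q175;Tyrobp-KO against Q175, 0.11 in the interaction and -0.12 between sexes. The 3 Tyrobp-KO samples limit the comparisons they enter, and 19 to 93 reads per sample limit the precision of *Nt5e*.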
